A study of Mus musculus with 4 samples.

Results

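IL-23 and IL-12 are cytokines of 2 chains that share 1 of them, and their receptors share 1 chain in the same way. The IL-12 family chains and receptors are the 8 genes *Il23a*, *Il12a*, *Il12b*, *Ebi3*, *Il27*, *Il23r*, *Il12rb1* and *Il12rb2*, which were selected by gene symbol, and all 8 are among the 24346 symbols measured. They were measured in dorsal skin of male C57BL/6 mice treated with imiquimod (IMQ) cream, a model of psoriasis-like dermatitis. The Cont-IMQ group (n = 2) was fed the NASH diet, which is rich in fat and cholesterol and contains bile salt, and the 7KC-IMQ group (n = 2) was fed the NASH diet containing 7-ketocholesterol (7KC), an oxidized derivative of cholesterol. In both groups feeding began at 8 weeks of age and lasted 3 weeks, and 5% IMQ cream was then applied for 1 day. All 4 libraries came from IMQ-treated skin of wild type mice, so skin without IMQ and skin of mice on a standard diet are not part of the comparison. The labels do not say whether a library came from 1 mouse or from several, and p-values measure only the spread between these libraries.

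As background, IL-23 consists of p19, encoded by *Il23a*, and p40, encoded by *Il12b*, and IL-12 consists of p35, encoded by *Il12a*, and the same p40. The EBI3 chain pairs with p28, encoded by *Il27*, to form IL-27, and with p35 to form IL-35. Dendritic cells and macrophages release IL-23 after Toll-like receptor stimulation, and IMQ is a ligand of Toll-like receptor 7. The IL-23 receptor, made of the *Il23r* and *Il12rb1* products, signals through JAK2, TYK2 and STAT3 in γδ T cells, Th17 cells and innate lymphoid cells, which then produce IL-17 and IL-22. The IL-12 receptor, made of the *Il12rb1* and *Il12rb2* products, signals mainly through STAT4 in Th1 and natural killer cells. Antibodies against p19 and p40 are used to treat psoriasis. The comparison between the groups asks whether 7KC in the diet changes these chains in the treated skin.

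The start-site sequence of *Il12b* is shown because *Il12b* encodes the shared cytokine chain and had no overlap between the groups, and those of *Il23r* and *Il12rb2* because they encode the receptor chains that separate IL-23 from IL-12. The RefSeq table of the GRCm38.p6 assembly, the assembly also called mm10, held such a window for 5 of the 8 genes. Each window runs from 250 bases before to 50 bases after the start of the gene, 5′ to 3′ along the strand of the gene. Capitals mark matches, on either strand, to a form of the NF-κB motif (GGG, any 5 bases, CC) or to TATANAA, a form of the TATA box. Matches of the NF-κB form can overlap each other.
*Il12b*, chr11:44399813-44400112, plus strand: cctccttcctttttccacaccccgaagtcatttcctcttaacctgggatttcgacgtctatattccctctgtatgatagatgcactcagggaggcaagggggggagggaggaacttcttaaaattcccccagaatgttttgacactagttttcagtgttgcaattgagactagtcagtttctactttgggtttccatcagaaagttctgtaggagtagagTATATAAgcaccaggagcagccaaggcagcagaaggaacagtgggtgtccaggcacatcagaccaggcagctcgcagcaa
*Il23r*, chr6:67491806-67492105, minus strand: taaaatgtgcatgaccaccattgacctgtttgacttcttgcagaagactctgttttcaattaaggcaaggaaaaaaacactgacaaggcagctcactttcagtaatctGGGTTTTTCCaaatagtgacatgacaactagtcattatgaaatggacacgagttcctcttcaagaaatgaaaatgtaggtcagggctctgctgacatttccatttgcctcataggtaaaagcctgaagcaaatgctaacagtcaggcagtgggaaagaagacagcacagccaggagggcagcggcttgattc
*Il12rb2*, chr6:67376139-67376438, minus strand: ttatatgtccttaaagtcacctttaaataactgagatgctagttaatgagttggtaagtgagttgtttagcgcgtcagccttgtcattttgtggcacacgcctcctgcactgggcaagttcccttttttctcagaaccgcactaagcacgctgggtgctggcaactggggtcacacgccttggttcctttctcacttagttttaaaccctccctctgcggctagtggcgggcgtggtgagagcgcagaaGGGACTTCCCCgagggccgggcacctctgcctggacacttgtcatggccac
The *Il12b* window held 1 match to TATANAA, beginning 30 bases before the start, and 0 matches to the NF-κB form. The *Il23r* window held 1 match to the NF-κB form. The *Il12rb2* window held 3 overlapping ones within 1 marked stretch, including the same bases counted on both strands. Among all 32851 windows of the table, 50.8% held a match to the NF-κB form and 11.3% a match to TATANAA. A match describes letters only.

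The values are FPKM, fragments scaled to exon length and to the mapped fragments of the library, so levels can be compared between genes only approximately. Such a comparison depends on the gene models and on how shared reads were counted, which are not given in the sources used here. Depth was estimated from the steps of low FPKM values, at 14960000 to 16180000 mapped reads per library. From this depth, the FPKM of each gene was converted to an approximate number of reads, and 3 reads were taken as the floor. Keratinocyte markers, headed by *Krt10*, summed to between 18064 and 25957 FPKM in the 4 libraries, and the tissue label is skin. The Cont-IMQ libraries were the extremes in hair follicle markers, with a sum of 127 FPKM in replicate 1 and 1560 FPKM in replicate 2. The 7KC-IMQ libraries lay between them, at 447 and 396 FPKM. In limma across the 15896 genes with a mean of at least 0.1 FPKM, 1 gene (0.00629%) passed an adjusted p-value of 0.05, and it is not one of the 8 members.

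In the 7KC-IMQ group, the mRNA of both IL-23 chains was higher than in the Cont-IMQ group, *Il23a* about 4-fold and *Il12b* about 2.3-fold in mean FPKM. The p35 chain of IL-12, *Il12a*, was at or under 3 reads in every library. The other cytokine chains and all 3 receptor chains overlapped between the groups. None of the 7 members tested was called in limma at an adjusted p-value of 0.05, and their adjusted p-values lay between 0.265 and 0.779. *Il23a* and *Il12b*, both higher, were the 2 members with an unadjusted p-value under 0.05, a criterion met in this direction by 7.5% of all genes tested. The same 2 members were the only ones whose groups did not overlap, again higher, as were 23.9% of all genes tested, while 0 members and 22.9% of all genes were lower without overlap. *Il23a* was the 1 member at least 2-fold higher in log2(FPKM + 1) without overlap, which held for 0.484% of all genes, and 0 members but 0.201% of all genes were at least 2-fold lower. The median difference of the 7 members was 0.22 in log2(FPKM + 1), against -0.01 for all genes tested. By their means 4 members were higher and 3 lower. The median is the value of *Il23r*, a gene of an estimated 3 to 17 reads whose groups overlapped. In whole skin, more cells of a type and more RNA per cell cannot be told apart.

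**Figure D1:**
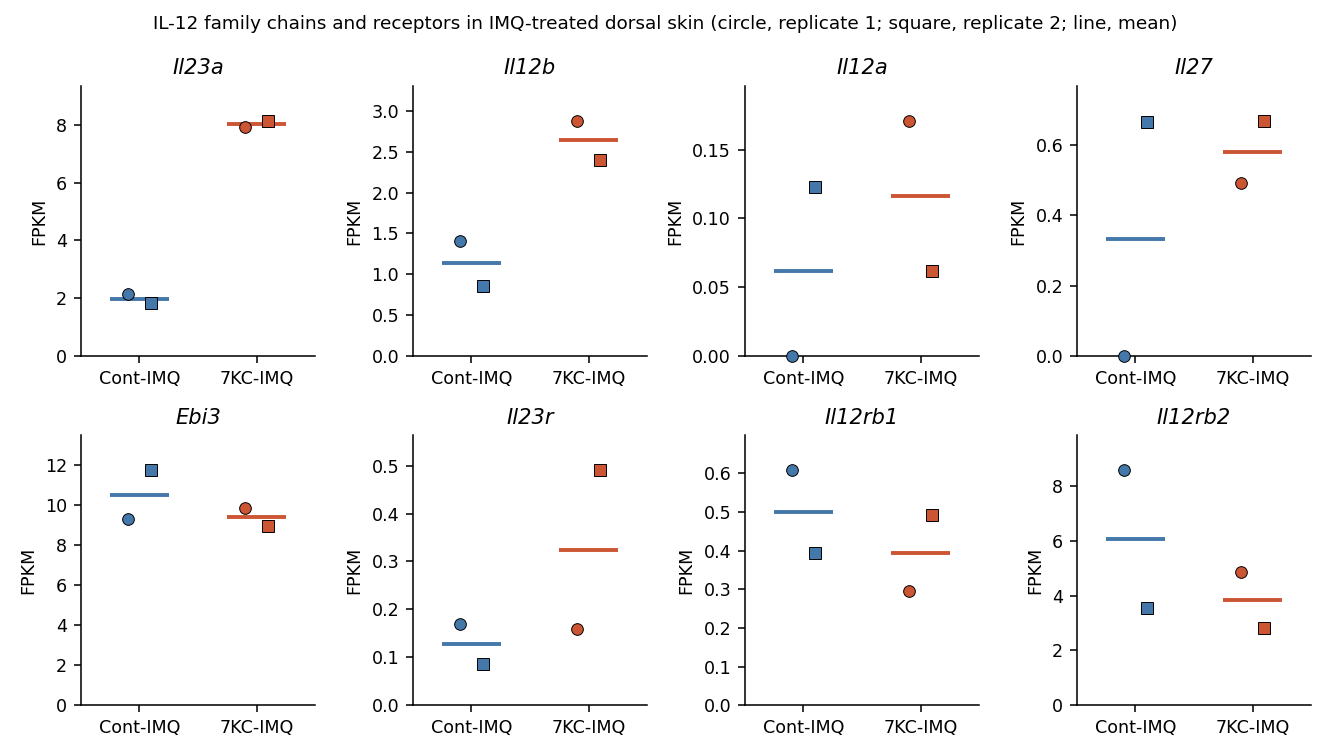
FPKM of the 8 genes in each library, with the 2 Cont-IMQ libraries in blue, the 2 7KC-IMQ libraries in orange and a line at each group mean. Each panel has its own axis from 0. *Il23a* and *Il12b* are separated between the groups, and the other 6 genes overlap.

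Of the IL-23 chains, *Il23a* (ENSMUSG00000025383.2, 4 exons, chromosome 10 of GRCm38 from 128296139 to 128298752, minus strand) encodes the p19 chain that is particular to IL-23. Cont-IMQ replicate 1 had 2.15 FPKM of *Il23a* and replicate 2 had 1.82 FPKM, whereas 7KC-IMQ replicate 1 had 7.92 FPKM and replicate 2 had 8.13 FPKM. The replicates of a group lay close together and the groups were far apart. The group means were 1.99 ± 0.226 FPKM and 8.02 ± 0.152 FPKM (SD, n = 2), a 4.04-fold difference. On the log2(FPKM + 1) scale, which understates the change of low genes, the difference was 1.6 (standard error 0.11), with an unadjusted p-value of 5.2e-05 and an adjusted p-value of 0.265 in limma. By the size of the difference upward *Il23a* was number 33 of the 15896 genes tested, and by p-value it was number 3. The values correspond to an estimated 38 and 32 reads in the Cont-IMQ libraries and 149 and 141 reads in the 7KC-IMQ libraries. The ratio of these reads per mapped read was 3.997, with an exact 95% interval of 3.07 to 5.27 that covers counting error only. No 75-base window of *Il23a* occurs in another annotated gene. Without Cont-IMQ replicate 2, the library with the highest hair follicle markers, the difference of *Il23a* was 1.52. Without Cont-IMQ replicate 1, the library with the lowest, it was 1.68.

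*Il12b* (ENSMUSG00000004296.14, 8 exons in its longest transcript, chromosome 11 from 44400063 to 44414033, plus strand) encodes the p40 chain shared by IL-23 and IL-12. *Il12b* measured 1.41 FPKM in Cont-IMQ replicate 1 and 0.855 FPKM in replicate 2, whereas 7KC-IMQ replicate 1 had 2.87 FPKM and replicate 2 had 2.40 FPKM. Both 7KC-IMQ libraries were above both Cont-IMQ libraries, although the Cont-IMQ libraries differed from each other by a factor of 1.65. The means were 1.13 ± 0.393 and 2.64 ± 0.333 FPKM (SD, n = 2), and the difference was 0.78 in log2(FPKM + 1) (standard error 0.17, adjusted p = 0.354 in limma). An estimated 37 and 22 reads stood against 81 and 63, a ratio of 2.35 per mapped read with an exact 95% interval of 1.73 to 3.24. This interval pools the reads of a group and covers counting error only, not the spread between libraries. Without Cont-IMQ replicate 2 the difference of *Il12b* was 0.59, and without Cont-IMQ replicate 1 it was 0.97. No window of *Il12b* is shared with another gene.

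*Il12a* (ENSMUSG00000027776.12, chromosome 3 from 68690644 to 68698547, plus strand) encodes the p35 chain of IL-12. It was listed at 0 in Cont-IMQ replicate 1 and had 0.123 FPKM in replicate 2, whereas 7KC-IMQ replicate 1 had 0.171 FPKM and replicate 2 had 0.0618 FPKM. These are an estimated 0, 2, 3 and 1 reads, so a difference in *Il12a* was not detectable at this depth. The ratio of the reads was 1.93, with an exact 95% interval of 0.277 to 21.3. With a mean of 0.0889 FPKM, *Il12a* did not pass the filter and was the 1 member that was not tested.

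The balance of the chains was compared within each library. *Il23a* was above *Il12b* in all 4 libraries, with a ratio in FPKM of 1.52 and 2.13 in the Cont-IMQ libraries and of 2.75 and 3.38 in the 7KC-IMQ libraries. The log2(FPKM + 1) of *Il23a* minus that of *Il12b* was 0.50 ± 0.16 in the Cont-IMQ group and 1.31 ± 0.16 in the 7KC-IMQ group (SD, n = 2). The shift of 0.82 was larger than the spread within the groups, and the two-sided exact permutation test gave p = 0.333, the smallest p-value that 2 libraries against 2 can give. *Il12a* minus *Il12b* shifted by -0.71 (exact permutation p = 0.333), with *Il12a* at or under the floor throughout. Without Cont-IMQ replicate 2 this shift was -0.43, and with a pseudocount of 0.1 the exact permutation p-value was 0.667.

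Of the IL-27 and IL-35 chains, *Ebi3* (ENSMUSG00000003206.7, 5 exons, chromosome 17 from 55952640 to 55957022, plus strand) was the most abundant of the 8 genes. Its level was 9.32 FPKM in Cont-IMQ replicate 1, 11.7 FPKM in Cont-IMQ replicate 2, 9.85 FPKM in 7KC-IMQ replicate 1 and, in 7KC-IMQ replicate 2, 8.98 FPKM. Both 7KC-IMQ values lay near the lower Cont-IMQ value. The difference was -0.14 in log2(FPKM + 1) (standard error 0.14, limma adjusted p = 0.700), and the read ratio of 0.897 had an exact 95% interval of 0.760 to 1.06. Of the exonic bases of *Ebi3*, 23.4% are overlapped by *Gm16712* on the opposite strand, a gene that had at most 0.965 FPKM. *Il27* (ENSMUSG00000044701.5, 5 exons, chromosome 7 from 126589010 to 126594941, minus strand), which encodes the p28 partner of EBI3, was far lower. *Il27* was listed at 0 in Cont-IMQ replicate 1 and had 0.665 FPKM in replicate 2, whereas 7KC-IMQ replicate 1 had 0.493 FPKM and replicate 2 had 0.668 FPKM. The 3 libraries with a value, of an estimated 7 or 8 reads each, did not separate by diet, and the 0 can be a failed estimate. With the 0 as listed, the difference of *Il27* was 0.29 (standard error 0.27, adjusted p = 0.682 in limma). Without that library it was -0.078. *Apobr*, on the opposite strand, overlaps 10.1% of the exonic bases of *Il27* and had 2.02 to 2.90 FPKM.

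Of the receptor chains, *Il23r* (ENSMUSG00000049093.9, 11 exons, chromosome 6 from 67422932 to 67491855, minus strand) encodes the chain that binds p19. Cont-IMQ replicates 1 and 2 had 0.171 and 0.0861 FPKM of *Il23r*, and the 7KC-IMQ replicates had 0.159 and 0.490 FPKM. In reads, 6 and 3 stood against 6 and 17, so 7KC-IMQ replicate 2 alone was above the others. The read ratio of *Il23r* was 2.47, with an exact 95% interval of 1.10 to 6.05 for counting error only, although the groups overlapped. The difference of *Il23r* was 0.22 (standard error 0.16, limma adjusted p = 0.597), and without 7KC-IMQ replicate 2 it was 0.040. *Il12rb1* (ENSMUSG00000000791.9, 16 exons in its longest transcript, chromosome 8 from 70808449 to 70821424, plus strand) encodes the chain shared by both receptors. Its level was 0.608 and 0.393 FPKM in Cont-IMQ replicates 1 and 2 against 0.295 and 0.493 FPKM in the 7KC-IMQ replicates, from an estimated 13 to 25 reads. Its groups overlapped, the difference was -0.11 (standard error 0.14, limma adjusted p = 0.779), and the read ratio of 0.776 had an exact 95% interval of 0.476 to 1.26.

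*Il12rb2* (ENSMUSG00000018341.12, 16 exons in its longest transcript, chromosome 6 from 67291318 to 67376188, minus strand) encodes the chain of the IL-12 receptor that the IL-23 receptor lacks. It lies 46.7 kb from *Il23r*. For *Il12rb2*, Cont-IMQ replicate 1 had 8.56 FPKM and replicate 2 had 3.56 FPKM, whereas 7KC-IMQ replicate 1 had 4.86 FPKM and replicate 2 had 2.81 FPKM. The Cont-IMQ libraries differed by a factor of 2.40, the largest spread within the Cont-IMQ group among the members with a value above 0 in both libraries. The difference between the groups was -0.48 (standard error 0.42, adjusted p = 0.659 in limma). It ranged from -1.02 without Cont-IMQ replicate 2 to 0.051 without Cont-IMQ replicate 1. The read ratio was 0.638, with an exact 95% interval of 0.555 to 0.734 for counting error only, although the groups overlapped. Such an interval does not cover the spread between libraries. *Il12rb2* was the receptor chain with the most reads, an estimated 118 to 362. However, *Serbp1*, an abundant gene on the opposite strand, overlaps 27.3% of the exonic bases of its longest transcript. The Cont-IMQ replicates had 86.6 and 77.1 FPKM of *Serbp1* and the 7KC-IMQ replicates 91.0 and 98.3 FPKM. Counted on either strand, 23.1% of the 75-base windows of this transcript also occur in other genes. This share can include the stretch that *Serbp1* overlaps, so it is not a separate share. The library kit keeps the strand, but whether the counting used it is not given in the sources used here, and the part of *Serbp1* reads in the values of *Il12rb2* was not tested. *Il23r* minus *Il12rb2* in log2(FPKM + 1) was -3.03 and -2.07 in the Cont-IMQ libraries and -2.34 and -1.35 in the 7KC-IMQ libraries, so the groups overlapped (exact permutation p = 0.667). The shift of 0.70 was 0.22 without Cont-IMQ replicate 1, 1.18 without Cont-IMQ replicate 2, 1.2 without 7KC-IMQ replicate 1 and 0.21 without 7KC-IMQ replicate 2. With a pseudocount of 0.1 it was 1.37 (exact permutation p = 0.333).

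By mean FPKM over the 4 libraries the order of the members was *Ebi3* (9.97), *Il23a* (5.004), *Il12rb2* (4.95), *Il12b* (1.89), *Il27* (0.456), *Il12rb1* (0.447), *Il23r* (0.227) and *Il12a* (0.0889). The range of *Ebi3* did not meet that of *Il23a*, and the range of *Il12b* did not meet that of *Il27*. The other neighbours in this order overlapped in range, and *Il23a* was above *Il12rb2* in 2 of the 4 libraries, both of the 7KC-IMQ group. The place of *Il12rb2* is uncertain, because the part of *Serbp1* reads and of shared windows in its level was not tested. In every library *Il23a* and *Il12b* were both above *Il23r* and *Il12rb1*.

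**Figure D2:**
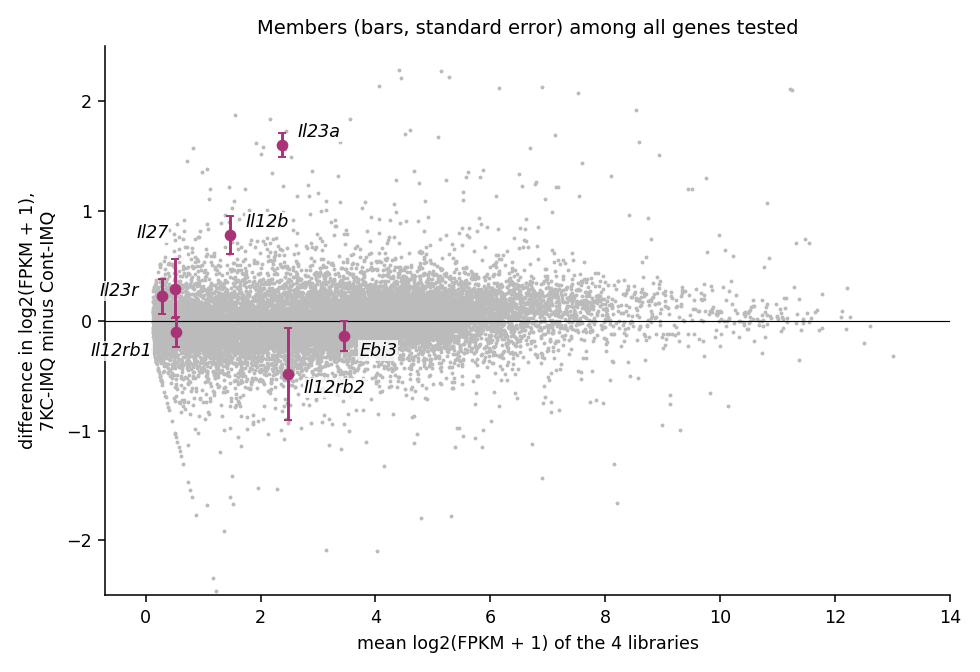
Difference between the groups in log2(FPKM + 1) against the mean level of the 4 libraries, for the 7 members tested (purple, bars show the standard error) and all 15896 genes tested (grey). *Il23a* at 1.6 and *Il12b* at 0.78 rank 33 and 147 upward among all genes tested. The vertical axis ends at 2.5 in either direction, and 16 genes beyond it are not drawn.

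The genes whose pattern over the 4 libraries was most like that of a member were searched among 13110 genes with a mean of at least 1 FPKM, as the smallest distance between log2(FPKM + 1) profiles centred on their mean. With 4 libraries this is a description. The nearest gene to *Il23a* was *Il17f* (distance 0.17), which encodes a cytokine of type 17 lymphocytes and measured 1.34 and 1.02 FPKM in Cont-IMQ skin against 5.08 and 6.33 FPKM in 7KC-IMQ skin. The next were *Tnc* (0.21), which encodes the matrix protein tenascin C, and *Pglyrp1* (0.24), which encodes a peptidoglycan recognition protein. The nearest gene to *Il12b* was *Tnf* (distance 0.057), with 4.402 and 3.13 FPKM against 7.98 and 6.47 FPKM. It was followed by *Cyp7b1* (0.096), which encodes an oxysterol 7-alpha-hydroxylase, and *Prnd* (0.12). The nearest genes to *Ebi3* were *Arl13b*, *Fmnl3* and *Hoxb3* (0.017 to 0.033), and those to *Il12rb2* were *Apol7a*, *Serpina3j* and *Bcl2l14* (0.13 to 0.24), which like *Il12rb2* were higher in replicate 1 than in replicate 2 of both groups.

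The genes around the members were grouped in 4 lists by their role. Over all genes tested, 13% had an unadjusted p-value under 0.05 in either direction, 7.5% higher and 5.47% lower, and 46.8% did not overlap between the groups. Rescaled to the same FPKM sum per library, 638 genes were higher and 1230 lower at this unadjusted p-value, against 1192 and 869 as deposited. In the 4 lists, 0 genes were called by limma at an adjusted p-value of 0.05.

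Of the 16 partner chains and signaling genes, 2 were higher and 0 lower at an unadjusted p-value under 0.05, 5 were higher and 4 lower without overlap, and the median difference was 0.045. The largest difference upward without overlap was that of *Socs1*, a feedback inhibitor of JAK kinases, with 9.71 and 5.94 FPKM in Cont-IMQ skin against 13.8 and 13.99 FPKM in 7KC-IMQ skin (difference 0.79, standard error 0.22, adjusted p = 0.356). The next was that of *Stat3*, the transcription factor of the IL-23 receptor, with 81.9 and 68.5 FPKM against 98.1 and 103 FPKM (0.42, standard error 0.11, adjusted p = 0.356). The largest differences downward without overlap were those of *Ptpn6* and *Stat5b*, with -0.19 and -0.18. *Il27ra* and *Il6st*, which encode the chains of the IL-27 receptor, overlapped, with 0.635 and 0.294 against 0.445 and 0.805 FPKM for *Il27ra* and 53.6 and 48.3 against 55.9 and 50.2 FPKM for *Il6st*. These receptor chains, *Stat4*, *Ifng*, *Gzma* and the single cell type markers other than the highest of each list were named outside the rule for named genes, after their values were seen. *Stat4*, the transcription factor of the IL-12 receptor, had 0.634 and 0.667 FPKM against 0.642 and 0.268 FPKM.

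Of 22 genes tested of the IL-23 axis of type 17 lymphocytes, 9 were higher and 4 lower at an unadjusted p-value under 0.05, and 13 were higher and 5 lower without overlap. The median difference was 0.28. The cytokine *Il17f* had the largest difference upward (1.62, standard error 0.15, adjusted p = 0.284 in limma), followed by *Il6* (1.57, standard error 0.38, adjusted p = 0.356), which supports Th17 differentiation. *Irf4*, a lymphocyte transcription factor, was lower without overlap, with 5.51 and 5.80 FPKM in Cont-IMQ skin against 4.11 and 3.15 FPKM in 7KC-IMQ skin (-0.53, standard error 0.14, adjusted p = 0.356). The list thus went in both directions. It was grouped by role, not by cell type, and includes *Il6*. Its counts and median therefore do not measure type 17 lymphocytes.

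Of the 16 genes tested of the IL-12 axis of type 1 lymphocytes, 2 were higher and 1 lower at an unadjusted p-value under 0.05, 4 were higher and 2 lower without overlap, and the median difference was 0.038. *Cxcl9*, a chemokine induced by interferon-γ, had 10.7 and 11.3 FPKM against 16.0 and 18.7 FPKM (0.61, standard error 0.11, adjusted p = 0.352), followed among the genes without overlap by *Il18r1* at 0.29. *Gzma*, a granzyme gene outside that limit, had a difference of 0.503. The largest differences downward were those of *Il18*, at -0.51, and *Cxcr3*, at -0.32. *Ifng*, which encodes the main cytokine induced by IL-12, did not pass the filter, with 0.0651 and 0.0658 FPKM in Cont-IMQ skin against 0.183 and 0.0660 FPKM in 7KC-IMQ skin.

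Of 22 genes that can induce *Il23a* and *Il12b*, such as Toll-like receptor and NF-κB genes, 3 were higher and 0 lower at an unadjusted p-value under 0.05, and 8 were higher and 5 lower without overlap. The median difference was 0.11. *Tnf* had the largest difference upward (0.79, standard error 0.18, adjusted p = 0.356), followed by *Cebpb* (0.53), and the largest differences downward were those of *Tlr4* (-0.20) and *Irf5* (-0.19).

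**Figure D3:**
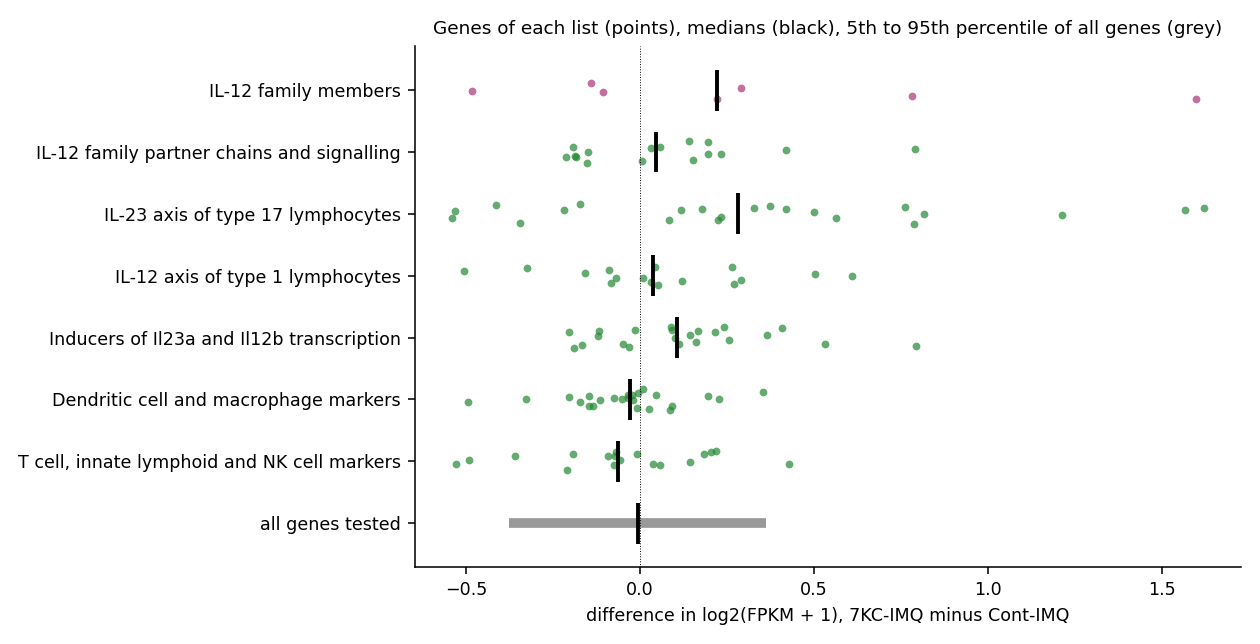
Difference in log2(FPKM + 1) of each gene tested (points) and the median (black line) for the 7 members, the 4 lists and 2 lists of cell type markers, with the 5th to 95th percentile of all genes tested as a grey bar. The median of the IL-23 axis list is 0.28 and those of the other 5 lists lie between -0.063 and 0.11. The marker lists not drawn have medians from -0.13 (hair follicle) to 0.25 (neutrophil), with 0.21 for adipocytes.

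Markers of the cells that can produce or receive IL-23 were set beside these values. Of 24 dendritic cell and macrophage markers tested, 0 were higher and 1 lower at an unadjusted p-value under 0.05. The shares of all genes tested were 7.5% and 5.47%. Without overlap 2 were higher and 4 lower, against 23.9% and 22.9% of all genes, and the median difference was -0.029. The summed level of these markers was 1602 and 1221 FPKM in Cont-IMQ skin against 1563 and 1229 FPKM in 7KC-IMQ skin, and the groups overlapped. *Cd74* was the highest of them, with 534 and 371 FPKM against 540 and 391 FPKM. The sum therefore says little about the markers of lower level, and the part of these cells in the difference of *Il23a* was not tested. Of 18 markers of T cells, innate lymphoid cells and natural killer cells, 1 was higher and 2 lower at an unadjusted p-value under 0.05. The shares of all genes are those given above. Without overlap 3 were higher and 3 lower, and the median difference was -0.063. The summed level of 214 to 241 FPKM overlapped between the groups. *Cd52* was the highest of them, with 102 and 98.4 FPKM against 103 and 95.6 FPKM, so this sum also says little about single markers. The 1 higher by p-value was *Thy1*, a surface protein that other skin cells also carry. It had 59.8 ± 3.92 against 80.7 ± 3.87 FPKM (SD, n = 2, difference 0.43, adjusted p = 0.352 in limma). The 2 lower by p-value were *Cd3g* (-0.53, limma adjusted p = 0.356) and *Cd3e* (-0.36, limma adjusted p = 0.372), chains of the T cell receptor complex. A further chain, *Cd3d*, had a difference of 0.037. Of 12 neutrophil markers tested, 0 were called by limma at an adjusted p-value of 0.05. At an unadjusted p-value under 0.05, 4 were higher and 0 lower, against 7.5% and 5.47% of all genes. Without overlap 7 were higher and 3 lower, against 23.9% and 22.9% of all genes, and the median difference was 0.25. After *S100a8* and *S100a9*, the largest differences upward were those of *Retnlg* (0.72), *Cxcr2* (0.57) and *Mmp8* (0.54). *Mmp9* (-0.50) and *Il1r2* (-0.38) were among the lower ones. The neutrophil markers summed to 2707 and 2288 FPKM in Cont-IMQ skin against 7350 and 13920 FPKM in 7KC-IMQ skin, with *S100a9* the highest. *S100a8* and *S100a9*, which keratinocytes also express, made up 2560 and 2100 FPKM of these sums in Cont-IMQ skin and 7194 and 13785 FPKM in 7KC-IMQ skin. The other 12 neutrophil markers in the files summed to 147 and 188 FPKM against 157 and 135 FPKM, so without these 2 genes the sums overlapped. Most of these smaller sums was *Il1r2*, with 102 and 127 FPKM in Cont-IMQ skin against 100 and 76.6 FPKM in 7KC-IMQ skin. They therefore say little about the other single markers. The part of *S100a8* and *S100a9* expressing cells in the difference of *Il23a* was not tested. The sums of the skeletal muscle markers (8327 to 10386 FPKM, *Acta1* highest), adipocyte markers (1834 to 2721 FPKM, *Fabp4* highest) and red blood cell markers (6.81 to 27.0 FPKM, *Hba-a1* highest) overlapped between the groups. Single markers did separate. *Myh4* of muscle had a difference of 2.07 and *Myh1* one of -0.76, and *Lep* of adipocytes had 1.58. Without overlap, 2 muscle markers were higher and 3 lower, and 4 adipocyte markers were higher and 1 lower. Of 13 keratinocyte markers tested, 3 were higher and 3 lower without overlap, with *Dsg3* at 0.60 and *Krt15* at -0.81. Over all genes tested, 23.9% were higher and 22.9% lower without overlap.

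**Figure D4:**
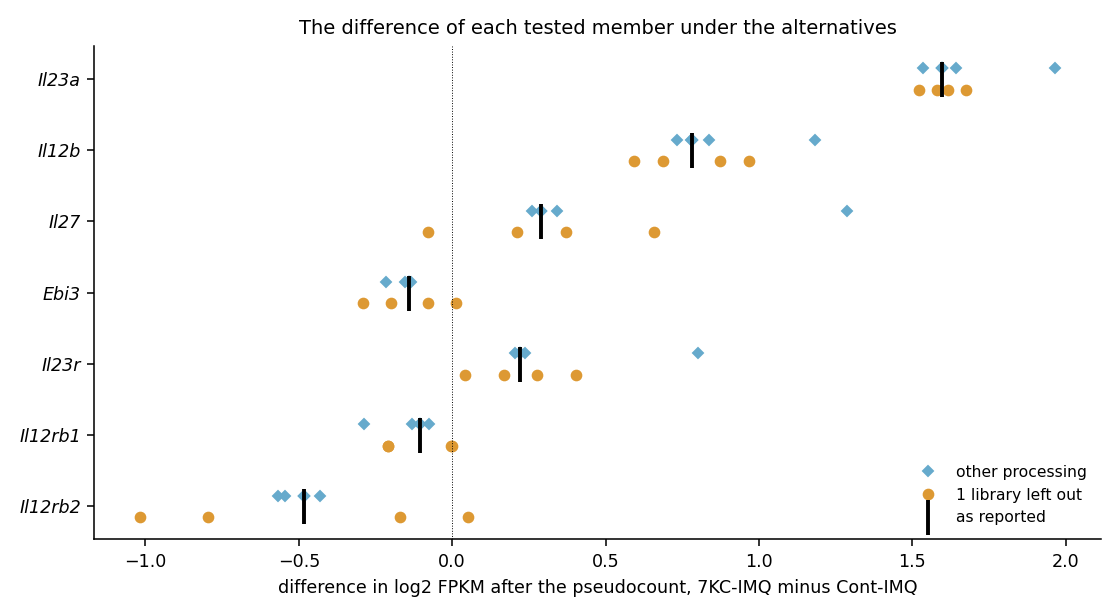
Difference between the groups for each of the 7 members tested, as reported (black), with 1 library left out (orange) and under the other alternatives (blue). *Il23a* stays between 1.52 and 1.97 and *Il12b* between 0.59 and 1.18, whereas *Ebi3*, *Il27* and *Il12rb2* cross 0 with a library left out.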

How the data were processed

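RNA sequencing of dorsal skin gave 4 libraries, 2 per group, grouped by the sample titles. The authors mapped 75-base single-end reads of stranded mRNA libraries to mm10 and deposited FPKM values, one per gene symbol and library. The submitters' processing notes name TopHat2 2.1.1, Bowtie2 2.2.8, SAMtools 0.1.18 and Cuffdiff 2.2.1, whereas the methods of the paper name other versions and Cufflinks. The annotation and the handling of strand and of multi-mapped reads are not given in the sources used here. A value of 0 can be a failed estimate.

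From the deposited FPKM, log2(FPKM + 1) was compared by limma 3.58.1 in R 4.3.3 with a mean-variance trend and Benjamini-Hochberg adjustment over the 15896 genes that averaged 0.1 FPKM or more. Depth was the number of mapped reads at which the largest share of low values of genes with 1 transcript lay within 0.1 of a whole read, assuming fragments of 200 ± 80 bases, with 75.2% to 77.9% near whole reads against 20% by chance. Gene models came from GENCODE M21 (GRCm38). Named genes were the 8 members, the 3 nearest profiles of members with a mean of at least 1 FPKM, the 2 largest rises and falls without overlap in each of the 4 pathway lists, and the highest gene of each marker list. A gene that this rule names is not reported here. The members and lists were chosen with earlier results of these data known. The symbols *Il26*, *Trac*, *Trdc*, *Trbc1*, *Ly6g*, *Flg*, *Hbb-bt*, *Ahsp* and *Epb42* of the lists did not match. Alternatives were the pseudocount, the filter, 3 scalings, no trend, a replicate block and leaving out each library.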

Additional observations from a re-analysis of the deposited data

How the results depend on the processing

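No member passed an adjusted p-value of 0.05 in limma under any of the 12 alternatives run, where the adjusted p-value of *Il23a* ranged from 0.121 to 0.967 and that of *Il12b* from 0.282 to 0.967. *Il23a*, *Il12b*, *Il23r* and *Il12rb1* kept their direction under all alternatives that gave a value. With 1 library left out in turn, the difference ranged from 1.52 to 1.68 for *Il23a*, 0.59 to 0.97 for *Il12b*, 0.040 to 0.40 for *Il23r*, -0.21 to -0.0023 for *Il12rb1*, -0.29 to 0.011 for *Ebi3*, -0.078 to 0.66 for *Il27* and -1.02 to 0.051 for *Il12rb2*. The direction was reversed for *Ebi3* without Cont-IMQ replicate 2 (0.011), for *Il27* without Cont-IMQ replicate 1 (-0.078) and for *Il12rb2* without Cont-IMQ replicate 1 (0.051). A filter at a mean of 1 FPKM gave no value for *Il27*, *Il23r* and *Il12rb1*. With a pseudocount of 0.1, the difference was 1.97 for *Il23a*, 1.18 for *Il12b*, 1.29 for *Il27* and 0.80 for *Il23r*. The number of members without overlap was 2 under all 3 other scalings, and the largest shift of the median of all genes by a scaling was to -0.067. With 1 library left out, the shift ranged from 0.71 to 0.93 for *Il23a* minus *Il12b*, -0.98 to -0.43 for *Il12a* minus *Il12b* and 0.21 to 1.20 for *Il23r* minus *Il12rb2*. The count of genes called over the whole table was 2 with a pseudocount of 0.1 and 1 to 9 with a library left out, highest without Cont-IMQ replicate 1 and 5 without Cont-IMQ replicate 2, and the cause was not tested. With the replicate number as a block, 1 gene was called and *Il23a* had an adjusted p-value of 0.394. The numbers are not stated to mark a shared litter, batch or day. The deviations of same-numbered libraries correlated by 0.065 over 15896 genes, a value over all genes that does not speak for single genes. For *Il12rb2* the standard error was 0.16 with the block against 0.42 without it, and the limma adjusted p-value with the block was 0.450. Whether same-numbered libraries share a litter, batch or day was not tested. An estimated depth of 14960000 to 16180000 reads limits *Il12a*, *Il27* and *Il23r* most.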
